A study of Mus musculus with 6 samples.

Results

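The cytosolic ribosomal protein genes encode the proteins that, with ribosomal RNA, build the small and the large subunit of the ribosome in the cytoplasm. Members were chosen by gene symbol (Rpl or Rps with a number and at most 1 of the letters a, x and l, or Rplp0, Rplp1, Rplp2 and Rpsa), with pseudogene symbols marked -ps and the Rps6k kinases left out. Of 83 such symbols in RefSeq, 38 had an array row with no other symbol and were measured as members, of 30175 genes measured in the same way. They comprise 23 proteins of the large and 15 of the small subunit, and RefSeq lists 1 of them, Rpl6l, as a pseudogene. Another 38 symbols stood only on rows shared with other symbols, and 7 were on no row used here.

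The series asked what happens to gene expression in mouse preimplantation embryos when the transcription factor TEAD4, which acts in the outer trophectoderm lineage, is targeted at the protein level. Zygotes from B6C3F1 x CD1 matings were injected with an antibody and with mRNA for TRIM21, a ubiquitin ligase that recognises antibodies and has the proteins bound to them degraded. The study's methods give it as a fusion with the red fluorescent protein mCherry. Each of the 3 groups was represented by 2 pools of 10 whole embryos (replicates a and b), and each pool by 1 Affymetrix array. The anti-TEAD4 group received an antibody against TEAD4, the anti-GFP group an antibody against GFP, a protein these embryos do not make, and the Trim21 group no antibody. All embryos, controls included, were injected with Trim21 mRNA together with dextran beads, no engineered allele is given for any of them, and all were lysed 72 hours after injection, at 96 hours of culture and 4 days post coitum. According to the labels the cavity was absent, small or aberrant in the anti-TEAD4 pools and normal in the others. The pools mix embryos and cell lineages, so that fewer cells of a type and less RNA per cell cannot be told apart.

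Ribosomal protein mRNAs are among the most abundant mRNAs of growing cells. Most of them start with a cytosine followed by a run of pyrimidines, the terminal oligopyrimidine (TOP) motif, through which mTOR signalling and LARP1 control their translation and stability. In the mouse embryo ribosomes are first inherited from the oocyte, and new ribosomes are made after the embryonic genome is activated. Ribosomal protein genes have left many processed copies in the mouse genome, so that an array row named for such a gene need not lie at the gene itself.

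To show what the TOP motif looks like at these genes, the RefSeq start site windows (build GRCm38.p6) of 8 members are given below. They are the 4 members with the smallest and the 4 with the largest difference between the 2 anti-TEAD4 pools, among members with a promoter entry. For Rpl31 and Rpl41 that difference was read on array rows on another chromosome, and on rows at the gene's own chromosome it was −0.10 and −0.23, so that their windows are not those of the measured rows. Each window has 18 bases before the annotated start and 12 bases from it, written 5′ to 3′ on the gene's strand, and the capitals mark the longest run of at least 8 pyrimidines that begins with C.
Rpl11, chr4:136053382-136053411, minus strand: ctcctgacccataaggccacggggccggaa
Rpl41, chr10:128549157-128549186, minus strand: cgacacacgggccggctcggaagtgacgac
Rpl6, chr5:121204483-121204512, plus strand: tcttggtcacctcccgtcattgcttataga
Rps18, chr17:33955654-33955683, minus strand: ttatacgtcacttccgCTCTCTCTTCCaca
Rpl31, chr1:39367833-39367862, plus strand: CCTCTTCCTCCTCgcctccccgtgacccgg
Rpl10a, chr17:28328453-28328482, plus strand: gtggtggcgcccccccagcggccgcaaact
Rpl39l, chr16:10170210-10170239, plus strand: tagctcccaggcctttccggatttccggtg
Rpl32l, chr10:20208421-20208450, plus strand: ataaaataaaatgaccagCTTCTTCCTTgg
The run crossed the annotated start in Rps18, lay before it in Rpl31 and began on it in Rpl32l. Within 20 bases on either side of the start, such a run was found on the gene's strand in 14 of the 32 members with a promoter entry (43.8%), against 14.5% of 27025 genes. Counting either strand, it was found in 15 members (46.9%), against 28.4% of all genes. Annotated starts can lie off the main start of a gene, so that a window without a run says only that these letters are not in it. The median difference between the anti-TEAD4 pools was −0.41 on the log2 scale in the 14 members with a run and −0.46 in the 18 without, which is a description with no test.

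Of the 6 arrays, anti-TEAD4 replicate a stood apart. Its median log2 intensity over all genes was 4.83, against 4.68 in anti-TEAD4 replicate b and 4.62 to 4.67 in the 4 control arrays. Its mean correlation with the other arrays was 0.975, against 0.986 to 0.989 for the others. Over 1381 olfactory and vomeronasal receptor genes, which serve sensory neurons, its median was 4.01, against 3.78 in replicate b and 3.68 to 3.82 in the controls. Tead4 mRNA, whose protein and not whose mRNA was targeted, had log2 intensities of 8.44 and 8.95 in the anti-TEAD4 pools, 9.30 and 9.16 in the anti-GFP pools and 9.40 and 9.40 in the Trim21 pools. Trim21, whose mRNA all embryos received, read 12.11 and 11.47 with anti-TEAD4, 10.16 and 10.60 with anti-GFP and 9.05 and 7.56 in the Trim21 pools, so that this signal, which includes any transcript of the embryo itself, differed between the 3 groups and between the Trim21 pools. The part of this difference in the results was not tested. The trophectoderm markers were lower with anti-TEAD4: all 7 measured had a log2 fold change below 0 against both control groups, 5 of them at an unadjusted limma p under 0.05 and none after adjustment, with Id2 lowest at −3.20 (standard error 0.20, adjusted p = 0.102). The inner cell mass list had 1 of 6 genes higher (Sox2), the primitive endoderm list 0 of 3 in either direction, and the list of cumulus cells, which surround the oocyte, 0 of 7, all at an unadjusted p under 0.05, with cumulus medians of 4.45 and 4.05 in the anti-TEAD4 pools and 3.86 to 4.07 in the controls, near those of the receptor genes.

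Ribosomal protein genes covered almost the whole range of the arrays. Rpl41, a very short basic protein, Rpl4, which lines the exit tunnel for new proteins, and Rpl35, which sits at the end of that tunnel, had the highest rows, with means over the 6 arrays of 18.7, 18.2 and 18.1. Rpl3l, Rpl11 and Rps14 had the lowest, with 4.60, 6.52 and 7.51. The rows used for Rpl41 and Rpl35 lie on other chromosomes than the genes. Their rows on the gene's own chromosome had means of 12.2 for Rpl41 and 17.0 for Rpl35. Over the members the median level was 13.4 and 13.9 in the anti-TEAD4 pools, 13.7 in both anti-GFP pools and 13.7 in both Trim21 pools. Levels of different rows depend on their probes, so they give no ranking of the mRNAs.

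No ribosomal protein gene passed the test with anti-TEAD4, and their values lay on both sides of 0. Against both control groups, the median log2 fold change (the difference of group means in log2 intensity) over the 38 members was −0.02, with a range of −0.48 (Rpl39l) to 0.36 (Rpl3l) and a median standard error of 0.17. The median over all genes was 0.06. The fold change was above 0 in 14 of the 38 members and at or below 0 in the rest. Over all genes it was above 0 in 18054 of 30175, a larger share. None of the 38 passed limma at an adjusted p under 0.05, and none at an unadjusted p under 0.05. Over all genes 8.51% passed unadjusted and 0.0% adjusted. By limma the lowest adjusted p of a member was 0.641, for Rpl3l. An analysis of variance without moderation also passed 0 members at an unadjusted p under 0.05, and the methods' t-test on linear intensities passed 2 (9.47% of all genes), with 0 after adjustment.

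The same held against each control group alone. Against Trim21 the members' median was 0.02, and 0 of 38 passed at an unadjusted p (6.5% of all genes) or an adjusted one (0.0%). Against anti-GFP the median was −0.03, and 0 of 38 passed at an unadjusted p (6.6% of all genes) or an adjusted one (0.0%). These comparisons share the anti-TEAD4 arrays with each other and their controls with the comparison against both groups. The 95% intervals show what this leaves room for: for the most precisely measured member, Rpl11, the interval was −0.23 to 0.36, and for the least, Rpl31, it was −1.97 to 1.37.

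**Figure D1:**
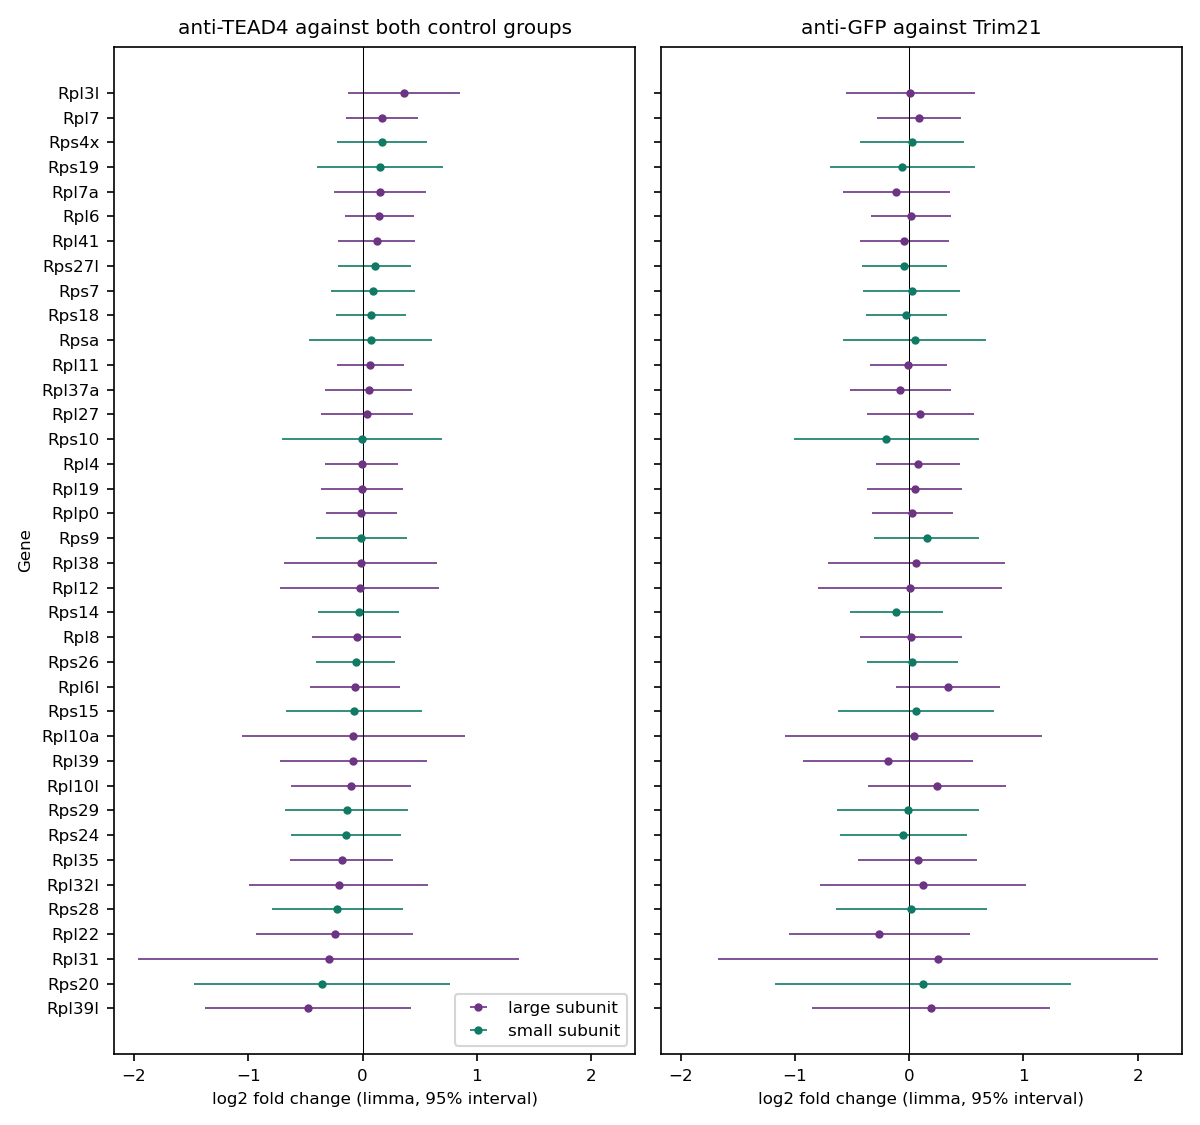
Log2 fold change (horizontal axis, with 95% limma intervals as bars) of each of the 38 genes, one gene per row and coloured by subunit, for anti-TEAD4 against both control groups on the left and anti-GFP against Trim21 on the right. Every interval crosses 0 in both panels, and the left panel spans −0.48 for Rpl39l to 0.36 for Rpl3l.

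These group means average 2 anti-TEAD4 pools that lay on opposite sides of the controls. Replicate a was the lowest of the 6 arrays in 26 of 38 members, against 26.7% of all genes, and replicate b was the highest in 27 of 38, against 18.0%. Both at once held for 20 of the 38 (52.6%), against 8.03% of all genes. Relative to the mean of the 4 control arrays, the members' median was −0.20 in replicate a, with 29 of 38 below that mean. It was 0.16 in replicate b, with 37 of 38 above that mean. The shares over all genes were not counted, and the medians over all genes were 0.078 and 0.025. Other genes of like level showed the same order. In their bins of mean log2 intensity from 6 to 20, the medians were −0.125 to −0.405 in replicate a and 0.032 to 0.135 in replicate b. Replicate a lay below replicate b in 34 of 38 members, against 44.9% of all genes, with a median difference of −0.40 in the members. In the controls the median difference of replicate a minus b was 0.05 for anti-GFP and −0.07 for Trim21. In 28 of 38 members the 2 anti-TEAD4 pools lay farther apart than the highest and lowest of the 4 control arrays. That control range had a median of 0.16 and reached 0.63. The same share over all genes was not counted, so this count is not shown to be particular to these genes. With 1 array on each side this difference between pools has no test.

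**Figure D2:**
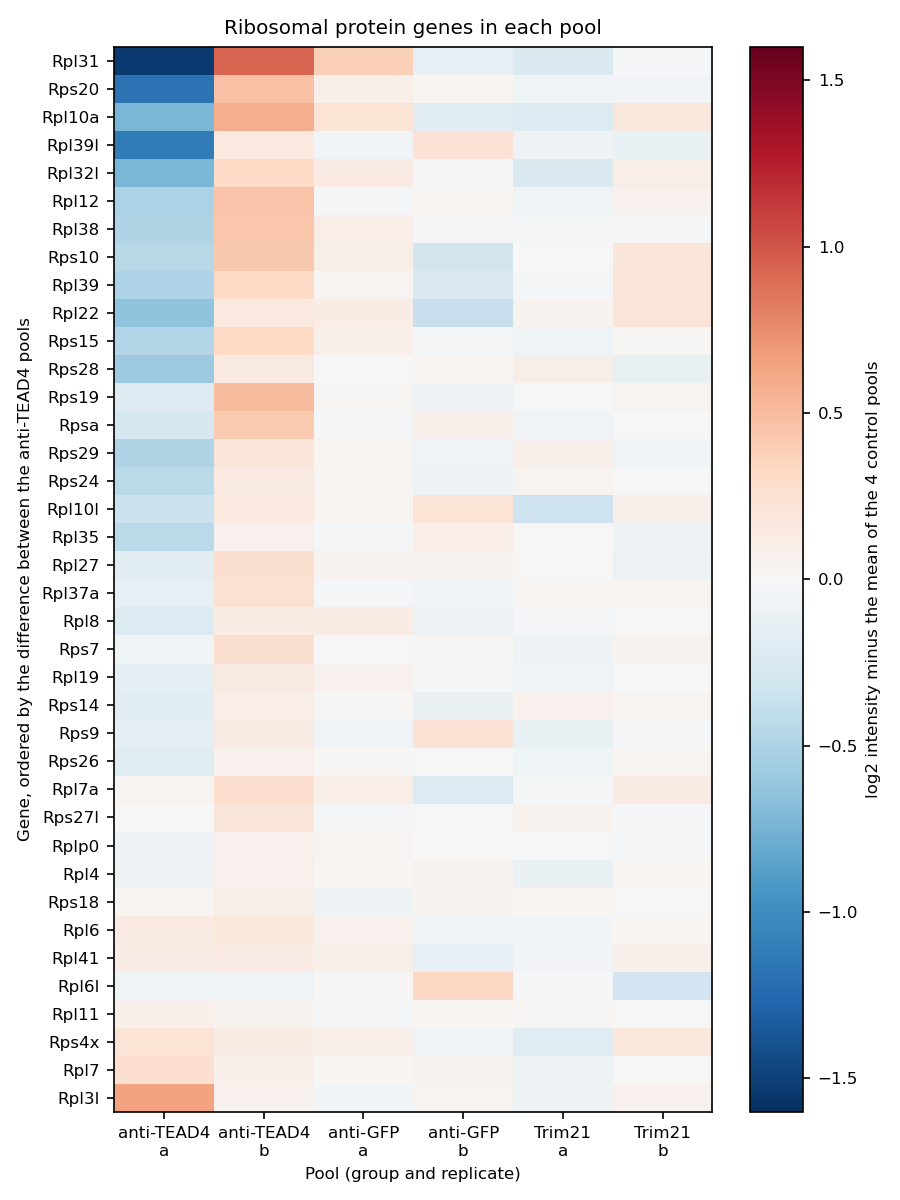
Log2 intensity of each gene (rows, ordered by the difference between the anti-TEAD4 pools) in each of the 6 pools (columns), as the difference from the mean of the 4 control pools, with red above and blue below it. Anti-TEAD4 replicate a is mostly blue (29 of 38 below the control mean) and replicate b mostly red (37 of 38 above it), while the 4 control columns stay pale. The shares of all genes below and above the control mean were not counted.

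The 4 genes whose anti-TEAD4 pools differed most show this directly. Rps20, a protein of the head of the small subunit, had log2 intensities of 8.69 and 10.35 in the anti-TEAD4 pools, against 9.96 and 9.91 in the anti-GFP pools and 9.80 and 9.83 in the Trim21 pools. The 4 controls spanned 0.16, and the anti-TEAD4 pools lay below and above all of them, which left a log2 difference of −0.36 (standard error 0.45). Rpl10a, of the mobile stalk through which used tRNA leaves the ribosome, had 9.08 and 10.39 in the anti-TEAD4 pools, against 10.03 and 9.64 with anti-GFP and 9.59 and 10.00 with Trim21. Its pools too lay on either side of the controls, and its log2 difference was −0.08 (standard error 0.39). Rpl39l had 14.14 and 15.42 in the anti-TEAD4 pools, against 15.22 and 15.49 with anti-GFP and 15.18 and 15.15 with Trim21. Here only replicate a stood outside the controls.

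Rpl31, which lies by the tunnel exit, had the widest gap, with 7.08 and 9.54 in the anti-TEAD4 pools, against 8.99 and 8.48 with anti-GFP and 8.38 and 8.58 with Trim21. This row lies on chromosome 7, while RefSeq places Rpl31 on chromosome 1. A row on chromosome 1 that names Rpl31 with 1 other symbol read 12.12 and 12.22 in the anti-TEAD4 pools, against 12.12 and 12.00 with anti-GFP and 12.16 and 12.06 with Trim21. The gap between the anti-TEAD4 pools was thus −2.46 on the first row and −0.10 on the second.

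Such rows away from the gene touched 6 of the 38 members (Rpl12, Rpl27, Rpl31, Rpl35, Rpl41 and Rpl7a), whereas 99.0% of rows with 1 symbol lay on the chromosome of their gene. RNA was extracted without DNase digestion, and the part of genomic copies in these signals was not tested. The choice of row turned the direction in several of them. For Rpl31 the log2 fold change was −0.30 on the row on chromosome 7 and 0.09 on the shared row on chromosome 1, and for Rpl12 it was −0.03 on the row used and 0.28 on a shared row at the gene's own chromosome. Rpl35 had a row of its own at each place. Its brighter row, on chromosome 1, had 17.74 and 18.24 in the anti-TEAD4 pools, against 18.14 and 18.28 with anti-GFP and 18.18 and 18.09 with Trim21, that is −0.18 on the log2 scale (standard error 0.18). Its row on chromosome 2, where RefSeq places the gene, had 17.08 and 17.11, against 16.99 and 16.86 with anti-GFP and 16.98 and 16.91 with Trim21, a log2 fold change of 0.16. On that row both anti-TEAD4 pools lay above all 4 controls. The 2 rows of Rpl27 gave gaps between the anti-TEAD4 pools of −0.42 and −0.39, and those of Rpl7a −0.23 and −0.64. Over the members whose row used lay on the gene's own chromosome, the median gap was −0.36. Over the 6 with a row elsewhere it was −0.46.

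The gap was found in both subunits and was not confined to these genes. Its median was −0.38 over the 23 large subunit genes (replicate a below b in 20) and −0.58 over the 15 small subunit genes (14). The 38 ribosomal protein symbols on shared rows had a median gap of −0.35, with replicate a below b in 35. Among 74 mitochondrial ribosomal protein genes, which serve the separate ribosome of that organelle, the median gap was −0.74, with replicate a below b in 71. Over all genes it was 0.05, and 44.9% had replicate a below b. The receptor genes went the other way, with a median gap of 0.20.

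The gap followed the level of the row in all other genes too. Genes other than the members had a median gap of 0.20 at levels under 4, 0.12 from 4 to 6, −0.37 from 6 to 8, −0.43 from 8 to 10, −0.48 from 10 to 12, −0.50 from 12 to 14, −0.39 from 14 to 16 and −0.24 from 16 to 20. The 14 members in the top bin had a median gap of −0.36, the 5 between 14 and 16 one of −0.69, and the 9 between 8 and 10 one of −0.72. The 4 members between 12 and 14 (−0.54) lay near the other genes, and the 2 between 10 and 12 (−0.42) and the 3 between 6 and 8 (−0.28) had smaller gaps than they did. The bins hold few members and no test was made.

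**Figure D3:**
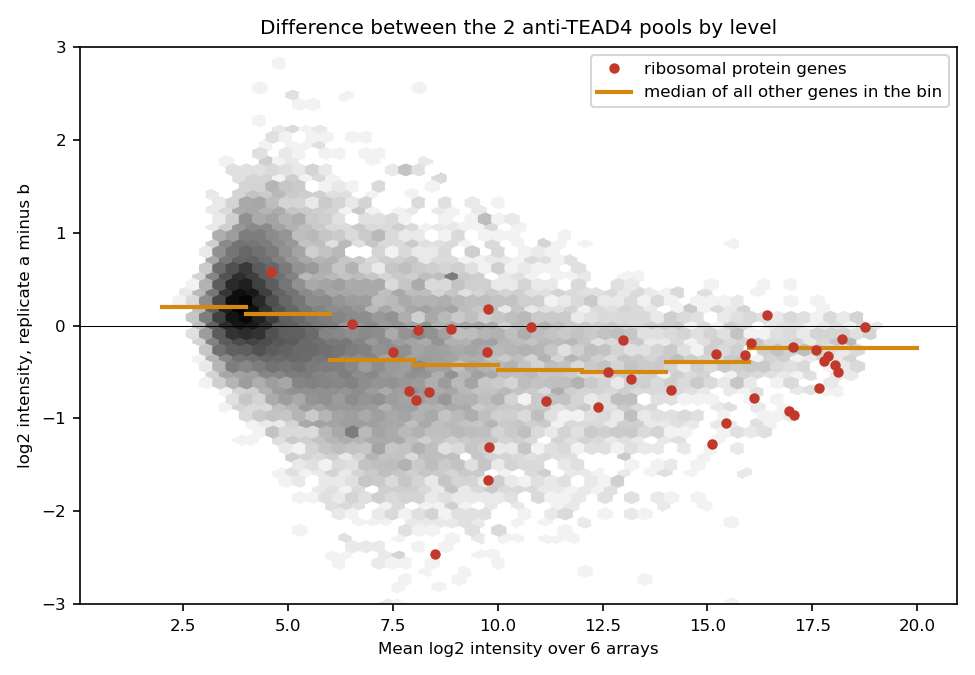
Log2 intensity of anti-TEAD4 replicate a minus replicate b (vertical axis) against the mean log2 intensity over the 6 arrays (horizontal axis), with ribosomal protein genes as red points, all genes as grey hexagons (darker for more genes, log shading) and the median of all other genes in each level bin as orange lines. The orange lines are above 0 under a level of 6 and between −0.24 and −0.50 above it, and most red points lie below 0.

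The scaling of the arrays changed the gap. After quantile normalization the median gap of the members was −0.08. Replicate a then lay below all 4 controls in 13 members and above them in 16, against 34.8% and 31.3% of all genes. The share below was near that of all genes on that scale, and the share above was larger. In the deposited values replicate a lay below all 4 controls in 26 members and above them in 6. The shares of all genes were 28.7% and 40.6%. Replicate b lay below all controls in 1 member and above them in 16 after quantile normalization, against 24.4% and 21.7% of all genes. In the deposited values it lay below them in 0 and above them in 29, against 18.5% and 26.3% of all genes. With each array centred on its median the gap was −0.55. The members' fold change against both control groups was 0.07 after quantile normalization and −0.13 after centring, and no member passed limma under either.

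**Figure D4:**
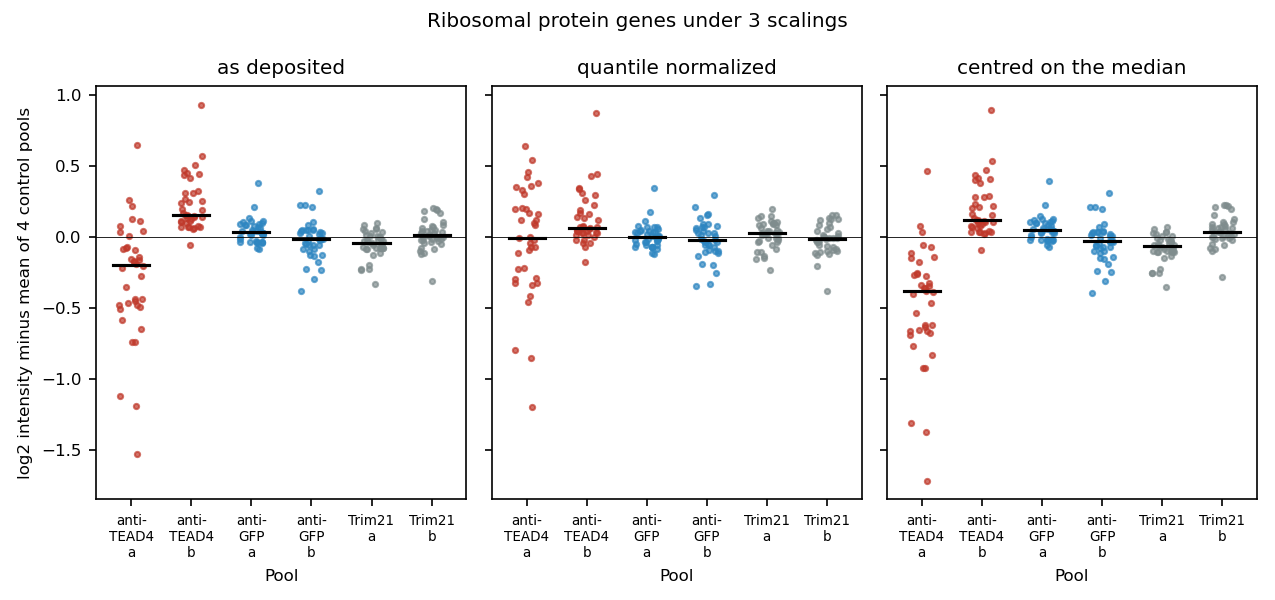
Difference of each of the 38 genes from the mean of the 4 control pools (vertical axis, log2 intensity) in each pool, as deposited, after quantile normalization and after centring each array on its median over all genes, with black bars for the median. The median of anti-TEAD4 replicate a is −0.20 as deposited, near 0 after quantile normalization and −0.38 after centring, and that of replicate b is 0.16, 0.07 and 0.12.

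Each anti-TEAD4 pool alone therefore gave a different result. Without replicate a, the members' median log2 fold change against both control groups was 0.16, and 6 of 38 passed at an unadjusted p under 0.05 (9.57% of all genes), none after adjustment. Without replicate b, it was −0.20, and 15 of 38 passed unadjusted (32.2% of all genes). Then 4 of 38 (10.5%) passed an adjusted p under 0.05, against 13.3% of all genes: Rpl3l was higher with a log2 fold change of 0.65, and Rpl39l (−1.12), Rps20 (−1.19) and Rpl31 (−1.53) were lower. In both fits the lone pool is taken to vary like the pools of the other groups.

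In a few genes the 2 anti-TEAD4 pools did lie beyond the controls on the same side, no more often than over all genes. Both were above all 4 controls in 4 of 38 members (10.5%), near the share of all genes (11.4%). Both were below them in 0 of 38, against 7.68% of all genes. Rpl7, a large subunit protein, had 9.98 and 9.80 in the anti-TEAD4 pools, against 9.75 and 9.77 with anti-GFP and 9.64 and 9.71 with Trim21, a log2 difference of 0.17 (standard error 0.13, adjusted p = 0.685). Rpl6 had 8.96 and 9.00, against 8.90 and 8.78 with anti-GFP and 8.79 and 8.86 with Trim21 (log2 fold change 0.15). Rpl41 had 18.82 and 18.84, against 18.80 and 18.57 with anti-GFP and 18.66 and 18.79 with Trim21 (log2 fold change 0.13). That row lies on chromosome 14, and on the Rpl41 row of the gene's own chromosome 10 the anti-TEAD4 pools had 12.14 and 12.37, against 12.27 and 12.04 with anti-GFP and 12.32 and 12.21 with Trim21. There replicate a lay among the controls, and the log2 fold change was 0.05. None of these differences passed the test. The fourth was Rpl11, which with Rpl5 and a small ribosomal RNA forms the particle that also binds MDM2, the inhibitor of p53. It had 6.57 and 6.55 in the anti-TEAD4 pools, against 6.46 and 6.52 with anti-GFP and 6.51 and 6.48 with Trim21. Rpl5 itself was on shared rows only, and its row on its own chromosome had 11.41 and 11.43, against 11.29 and 11.39 with anti-GFP and 11.16 and 11.28 with Trim21. A brighter shared row on chromosome 7 had 15.97 and 16.41, against 15.93 and 16.16 with anti-GFP and 15.90 and 15.98 with Trim21. On that row replicate a lay among the controls, and the gap between the anti-TEAD4 pools was −0.44.

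The stalk that recruits the elongation factors is built on Rplp0, which binds Rplp1 and Rplp2. Rplp0 had 12.91 and 13.07 in the anti-TEAD4 pools, against 13.04 and 12.99 with anti-GFP and 12.99 and 12.98 with Trim21, with a log2 fold change of −0.01 and a 95% interval of −0.32 to 0.30. Replicate a was the lowest and replicate b the highest of the 6 arrays. Of its partners, both on shared rows, Rplp1 had 18.13 and 18.32 in the anti-TEAD4 pools, against 18.22 and 18.17 with anti-GFP and 18.31 and 18.22 with Trim21. Rplp2 had 7.66 and 8.40, against 8.22 and 8.03 with anti-GFP and 8.23 and 8.25 with Trim21. Both repeated the order of the family, with replicate a lowest and replicate b highest.

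Several ribosomal proteins have a paralog with a narrow expression pattern. Where paralogs are alike in sequence their rows can share signal, and their identity was not computed here. Rpl3l is the form of skeletal and heart muscle. It had 5.13 and 4.55 in the anti-TEAD4 pools, against 4.44 and 4.53 with anti-GFP and 4.40 and 4.55 with Trim21, close to the receptor genes, and it had the widest excess of replicate a over replicate b (0.58) among the members. Its common counterpart Rpl3, on a shared row, had 17.15 and 17.41, against 17.36 and 17.22 with anti-GFP and 17.04 and 17.37 with Trim21. Rpl10l, a testis form of Rpl10, had 12.32 and 12.82 in the anti-TEAD4 pools, against 12.70 and 12.88 with anti-GFP and 12.34 and 12.75 with Trim21, so that the groups overlapped. Rpl10 itself, on a shared row on the X chromosome, had 12.94 and 13.03, against 12.83 and 12.79 with anti-GFP and 12.49 and 12.92 with Trim21. A brighter shared Rpl10 row on chromosome 9 had 18.34 and 18.56 in the anti-TEAD4 pools. Its controls were 18.38 and 18.24 with anti-GFP and 18.39 and 18.49 with Trim21. Whether the Rpl10l row reads Rpl10 mRNA was not tested.

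Rpl39 lies in the exit tunnel, and Rpl39l is its testis form. Rpl39 had 10.70 and 11.51 in the anti-TEAD4 pools, against 11.23 and 10.96 with anti-GFP and 11.17 and 11.39 with Trim21, and Rpl39l is given above. Both were lowest in replicate a, and in Rpl39 replicate b was also the highest. Rps27l, whose human counterpart is induced by p53, had 16.02 and 16.21 in the anti-TEAD4 pools, against 15.98 and 16.00 with anti-GFP and 16.07 and 15.99 with Trim21. Its partner Rps27, on a shared row on its own chromosome, had 14.73 and 15.79, against 15.39 and 14.96 with anti-GFP and 15.57 and 15.44 with Trim21. The gap between the anti-TEAD4 pools was −0.19 in Rps27l and −1.06 on this row of Rps27. A brighter shared Rps27 row on chromosome 9 had 14.57 and 16.45 in the anti-TEAD4 pools, a gap of −1.88. Its controls were 16.12 and 15.49 with anti-GFP and 16.14 and 16.04 with Trim21.

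Other members followed the order of the family in different degrees. Rpl38, needed in the mouse for the patterning of the skeleton, had 16.48 and 17.40 in the anti-TEAD4 pools, against 16.92 to 17.06 in the controls. Rps19, whose human counterpart is mutated in Diamond-Blackfan anaemia, had 7.64 and 8.35, against 7.76 to 7.89 in the controls. Rps7, a small subunit protein, had 15.79 and 16.11, against 15.78 to 15.91 in the controls, so that only replicate b lay outside them. Rpsa, the laminin receptor and a protein of the small subunit, had 13.83 and 14.52 in the anti-TEAD4 pools, against 14.05 to 14.19 in the controls. By contrast Rps4x, an X-linked small subunit protein, had 16.59 and 16.48 in the anti-TEAD4 pools, against 16.17 to 16.54 in the controls. Replicate a was at or above b in 4 members, Rpl11, Rpl3l, Rpl7 and Rps4x.

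No member passed between the 2 control groups either. For anti-GFP against Trim21 the median log2 fold change was 0.03, with a range of −0.26 (Rpl22) to 0.34 (Rpl6l). None passed at an unadjusted p under 0.05 (1.09% of all genes) or an adjusted one (0.0%), and the methods' t-test passed 1 (3.97% of all genes), with 0 after adjustment. Both anti-GFP pools lay above both Trim21 pools in 5 of 38 members, against 17.4% of all genes, and below them in 2, against 11.3%. Rpl6l had 10.83 and 11.14 with anti-GFP, against 10.78 and 10.51 with Trim21, which gave a log2 difference of 0.34 (standard error 0.18, limma adjusted p = 1.0). Rps14, of the platform of the small subunit, had 7.54 and 7.40 with anti-GFP, against 7.59 and 7.57 with Trim21, and a log2 difference of −0.11 (standard error 0.16).

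The rest of the translation machinery was counted for the same comparison, anti-TEAD4 against both control groups, at an unadjusted limma p under 0.05, which 8.51% of all genes passed. No gene of these lists passed after adjustment. Of 4 measured ribosome components outside the symbol rule, 0 passed, and all 4 had replicate b highest of the 6 arrays, against 18.0% of all genes. Among them Fau, which encodes a small subunit protein fused to a ubiquitin-like one, had 15.39 and 16.90 in the anti-TEAD4 pools, against 16.74 and 16.12 with anti-GFP and 16.43 and 16.70 with Trim21. Of 9 elongation and termination factors 0 passed. Eef2, which moves the ribosome along the mRNA, had 14.85 and 16.41 in the anti-TEAD4 pools, against 16.43 and 15.86 with anti-GFP and 16.23 and 16.38 with Trim21. Of 28 initiation factors 0 were higher and 1 was lower, Eif5b, which joins the subunits, at a log2 difference of −0.60 (standard error 0.16, adjusted p = 0.464).

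Among genes of ribosome assembly, 5 of 50 biogenesis factors were higher and 2 were lower at the unadjusted threshold (14.0%). Nob1, the nuclease that finishes the small subunit's RNA, had 8.43 and 8.26 in the anti-TEAD4 pools, against 7.74 and 7.46 with anti-GFP and 7.47 and 7.75 with Trim21, a log2 difference of 0.74 (standard error 0.16, adjusted p = 0.374). Utp4 had 14.01 and 13.65, against 13.52 and 13.20 with anti-GFP and 12.55 and 12.83 with Trim21. The helicase Ddx47 had 8.38 and 8.88, against 9.67 and 9.58 with anti-GFP and 9.34 and 9.18 with Trim21. These 3 were named for having the lowest p of their list, which favours genes whose pools agree. Over all 50 factors the median gap between the anti-TEAD4 pools was −0.40, close to that of the ribosomal protein genes. It was also close to that of genes outside the family at like levels (−0.48 from 10 to 12). Replicate a was below b in 39 factors (78.0%), against 44.9% of all genes. It was lowest of the 6 arrays in 24 factors (48.0%), against 26.7% of all genes. Of 11 genes of RNA polymerase I and its factors 1 was higher and 0 lower, the initiation factor Rrn3, with 11.76 and 11.31 in the anti-TEAD4 pools, against 11.09 and 10.89 with anti-GFP and 10.71 and 11.19 with Trim21.

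Among 18 genes of the mTOR pathway and regulators of TOP mRNAs, 1 was higher and 1 was lower. Larp4, a poly(A)-binding relative of LARP1, had 14.72 and 14.75 in the anti-TEAD4 pools, against 13.97 and 13.90 with anti-GFP and 13.37 and 13.79 with Trim21, a log2 difference of 0.98 (standard error 0.16, adjusted p = 0.279). Its paralog Larp4b had 11.67 and 11.99 in the anti-TEAD4 pools, against 12.45 and 12.23 with anti-GFP and 12.19 and 12.28 with Trim21, a log2 difference of −0.46 (standard error 0.16, adjusted p = 0.539). Mtor, the kinase itself, had 6.22 and 7.23, against 7.53 and 7.29 with anti-GFP and 7.38 and 7.57 with Trim21, and did not pass (limma adjusted p = 0.587). Its replicate a lay lowest, as in most ribosomal protein genes, and its replicate b lay just below the controls.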

How the data were processed

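Per the labels and the study's methods, pools of 10 embryos were profiled on the Affymetrix Mouse Transcriptome Array. The authors used robust multiarray averaging in the Affymetrix Expression Console (version and annotation build not given in the sources used here) and deposited log2 intensities with 2 decimals. In 1 array the deposited log2 column holds 1 value that no intensity can take, the row of 1700019E08Rik, so that column was recorded as another unit and the row left out. Of the 65955 other rows, 30637 carry 1 symbol, 2176 several and 33142 none here. The brightest row per symbol gave 30175 genes. As these are arrays, precision is set by their number and not by a read depth.

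All 6 arrays entered 1 limma fit (version 3.58.1, R 4.3.3) with a mean for each of the 3 groups (3 residual and 2.517 prior degrees of freedom), with 4 comparisons and Benjamini-Hochberg adjustment over all genes at 0.05. The p-values weigh a difference of group means against the spread between pools of a group, shared by the 3 groups and moderated across genes. The fit was tested on simulated data in which each gene had the same spread in all 6 arrays. That test did not cover an array that stands apart. Tables and figures used Python 3.11.15 (matplotlib 3.10.9, scipy 1.17.1, pandas 2.3.3 and numpy 2.4.6). Sequences and gene chromosomes are from RefSeq (GRCm38.p6); row chromosomes are read from row identifiers.

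The members and lists were chosen with earlier results of these data known. Named genes are the stalk and the Rpl5 and Rpl11 genes, 4 paralog pairs, up to 6 rises and 6 falls with both anti-TEAD4 arrays beyond all 4 controls, the 4 largest anti-GFP differences without overlap, the 3 highest and 3 lowest rows, the 3 largest anti-TEAD4 pool differences, and up to 3 genes per other list by lowest p. Rpl32l, Rps18, Rps4x, Rpl38, Rpsa, Rps19, Rps7, Rpl12, Rpl27 and Rpl7a were added after their values were seen. Shared rows were read only where stated. Alternatives were dropping each array, dropping dim genes, averaging a gene's rows, admitting rows with several symbols, median centring, quantile normalization, moderation by intensity, a fit of only the groups compared, the replicate letter as a block, an analysis of variance and the methods' t-test on linear intensities (equal variances), and, added after seeing the data, rows on the gene's own chromosome.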

Additional observations from a re-analysis of the deposited data

How the results depend on the processing

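Leaving out each array in turn, the members' median log2 fold change ranged from −0.195 to 0.158 against both control groups, from −0.218 to 0.185 against Trim21 and from −0.228 to 0.165 against anti-GFP. The extremes were the fits without anti-TEAD4 replicate b and without replicate a. The count at an unadjusted p under 0.05 ranged from 0 to 15, 0 to 14 and 0 to 13 in these comparisons (6, 6 and 5 without replicate a), and the adjusted count from 0 to 4, 0 to 3 and 0 to 3. Without replicate b, 32.2%, 29.1% and 29.5% of all genes passed unadjusted and 13.3%, 9.43% and 9.25% adjusted; without replicate a, 9.57%, 8.76% and 8.88% passed unadjusted and 0.0% adjusted. The methods' t-test passed 2 members against both control groups (9.47% of all genes) and 1 for anti-GFP against Trim21 (3.97%), both unadjusted. Quantile normalization moved the median difference between the anti-TEAD4 pools, −0.40 as deposited, to −0.0783; the cause was not tested. For Rpl35 the row on the gene's own chromosome gave 0.16 in place of −0.18. Without anti-TEAD4 replicate b, Rpl3l, Rpl39l, Rps20 and Rpl31 passed the adjusted threshold. Whether the replicate letters pair the pools was not settled. The differences of replicate a minus b over all genes correlated at −0.247 between anti-TEAD4 and anti-GFP and 0.209 between anti-TEAD4 and Trim21. Between anti-GFP and Trim21 they correlated at −0.509. These values differ in sign and cannot decide it. With the replicate block the median against both control groups was −0.015 and 0 members passed, as without it. The other alternatives kept 0 members past either threshold. With 2 pools per group, differences whose limma interval includes 0 could not be told from 0, and rows near the receptor genes' level (Rpl3l) hold little signal over background.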
